A study of Homo sapiens with 2 samples.

Results

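The mitochondrial genome was represented by 37 of the 57773 rows of each expression table, all rows whose chromosome was given as MT. By symbol they comprised 13 protein-coding rows, 2 ribosomal RNA (rRNA) rows and 22 transfer RNA (tRNA) rows. The study measured total RNA of BFTC 905, an established urothelial carcinoma line of the bladder, by RNA sequencing. In the ANGPTL4 group the cells stably carried a plasmid that overexpresses ANGPTL4, a secreted inhibitor of lipoprotein lipase, and in the vector control group they stably carried empty pcDNA3.1-myc-His (-) A. Both groups grew in RPMI-1640 with fetal bovine serum, and their stable clones were selected with G418. The number of clones behind each library was not stated. With a single library in each group, nothing below can be checked against replicates or given a p-value, and every statement is about these 2 libraries rather than the conditions.

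Mitochondrial DNA is a small circle that encodes core subunits of respiratory complexes I, III and IV and of ATP synthase (complex V), together with the rRNAs and tRNAs of the organelle's own ribosomes. Both strands are transcribed into long precursors by the polymerase POLRMT with TFAM and TFB2M, and the tRNAs that lie between most genes mark the places where the precursors are cut. Most of the released mRNAs receive short poly(A) tails and are stabilised by the LRPPRC-SLIRP complex. The proteins of these steps, including those named here, are encoded in the nucleus. MT-ND6 is the only mRNA transcribed from the light-strand promoter, whereas the other mRNAs come from the heavy-strand transcript.

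The 37 rows ran from base 577 to base 16023 of the mitochondrial chromosome (hg19 per the submitters' processing notes, starts counted from 1). Of the 36 pairs of neighbouring rows, 20 touched with no base between them and 5 overlapped. The longest overlap was that of MT-ATP8 (MT, 8366 to 8572) and MT-ATP6 (MT, 8527 to 9207), which shared 46 bases, or 22.2% of MT-ATP8 and 6.75% of MT-ATP6. MT-ND4L (10470 to 10766) and MT-ND4 (10760 to 12137) shared 7 bases, and MT-ATP6 and MT-CO3 (9207 to 9990) shared 1. The other overlaps were between tRNA rows, MT-TI with MT-TQ by 3 bases and MT-TC with MT-TY by 1. The sequences of the overlapping mRNA rows are shown because MT-ATP8 had the largest difference between the libraries and its shared bases cannot be assigned to 1 row. They are the GENCODE 29 transcripts of the same names, on the plus strand, whose start, end and length equalled those of the deposited row for all 37 rows. The whole of MT-ATP8 and the first 90 bases of MT-ATP6 follow, with the shared bases in capitals.
MT-ATP8: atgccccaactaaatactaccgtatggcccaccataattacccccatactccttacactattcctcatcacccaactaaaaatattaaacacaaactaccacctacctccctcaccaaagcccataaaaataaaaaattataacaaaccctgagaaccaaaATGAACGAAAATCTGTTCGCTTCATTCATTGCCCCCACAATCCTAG
MT-ATP6: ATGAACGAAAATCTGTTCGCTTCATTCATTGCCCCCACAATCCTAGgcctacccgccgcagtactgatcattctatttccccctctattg
The last 60 bases of MT-ND4L and the first 60 of MT-ND4 are marked in the same way.
MT-ND4L: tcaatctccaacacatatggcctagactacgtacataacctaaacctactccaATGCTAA
MT-ND4: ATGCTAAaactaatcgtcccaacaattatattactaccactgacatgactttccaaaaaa

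A further feature of the sequences was the end of the reading frame. In 6 rows the last codon was not whole, and the row ended with 1 or 2 bases of a stop codon that the poly(A) tail is known to complete. The ends of MT-ND1, MT-ND2 and MT-CO3 are shown as examples, with the bases after the last whole codon in capitals.
MT-ND1: tccagcattccccctcaaaccTA
MT-ND2: ccttttatactaataatcttaT
MT-CO3: tccatctattgatgagggtctT
MT-ND3, MT-ND4 and MT-CYB likewise ended in a single T, and all 6 rows were followed by a tRNA row with no gap. The other 7 protein-coding rows held a whole number of codons.

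The values are RPKM, reads scaled to row length and to all reads of the library. The steps between RPKM values corresponded to 3233596 reads in the ANGPTL4 library and 6572767 reads in the vector control library, so the vector control library was 2.03 times as deep. At these depths 1 read on MT-ATP8, the shortest protein-coding row with 207 bases, equalled 1.49 RPKM in the ANGPTL4 library and 0.735 RPKM in the vector control library. ANGPTL4 itself was at 91.2 RPKM in the ANGPTL4 library and 3.92 RPKM in the vector control library. Of 14 urothelial and epithelial markers, 12 reached 1 RPKM in a library, with a summed level of 1610 RPKM in the ANGPTL4 library and 1662 RPKM in the vector control library, and the uroplakin gene UPK3A was at 0 in both. None of the 4 leukocyte markers and none of the 2 endothelial markers with a row, VWF and CDH5, reached that level, and 1 of 5 fibroblast markers did, COL1A1.

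All 24 rows of the rRNA and tRNA classes were listed at exactly 0 in both libraries. MT-RNR1 (MT, 648 to 1601) and MT-RNR2 (MT, 1671 to 3229), the rRNAs of the small and large mitochondrial ribosomal subunits, were among them, although at 954 and 1559 bases they are longer than most of the mRNA rows. The 22 tRNA rows measured 59 to 75 bases. Zeros were the rule for the corresponding nuclear classes too. Of 4909 nuclear rows that GENCODE classes as rRNA, small nuclear, small nucleolar, small Cajal body, micro or miscellaneous RNA, 10 had a value above 0, whereas 76.7% of rows classed as protein-coding did. Whether the RNA preparation, the alignment or the counting gave these zeros was not tested, and for the rRNAs and tRNAs no level or difference is given.

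The 13 protein-coding rows together held 281594 reads in the ANGPTL4 library and 336114 in the vector control library. That was 8.71% of all reads in the ANGPTL4 library (95% Wilson interval 8.68 to 8.74) and 5.11% in the vector control library (5.10 to 5.13), a ratio of 1.70 (1.69 to 1.71). These intervals, like all below, reflect the counting of reads alone and say nothing of variation among cultures or preparations. All 13 rows were higher in the ANGPTL4 library, whereas 35.5% of the 11820 measured rows (1 RPKM or more in either library) were higher by any amount. The median log2 ratio, taken of RPKM + 1, was 0.74 for the 13 rows and -0.11 for all measured rows. Of the 13, MT-ATP8, MT-ND6 and MT-ND2, were at least 2-fold higher and none at least 2-fold lower, against 1.2% and 1.92% of all measured rows. The 2-fold counts over all measured rows were 142 higher and 227 lower, or 184 and 140 after centring on the median row, which left the 3 mitochondrial rows as they were. MT-ND2 lay just inside the 2-fold limit, with a log2 ratio of 1.01, and MT-ATP6 just outside it, at 0.89. More mitochondrial RNA and less nuclear RNA per cell cannot be told apart in such shares. Reads outside the 13 rows made up 91.3% of the total in the ANGPTL4 library and 94.9% in the vector control library, a change in log2 of -0.06. These shares are what remained of the inferred depth, and reads in nuclear rows were not summed. To the extent that the remainder was nuclear, RPKM passes this change on to every nuclear row.

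**Figure D1:**
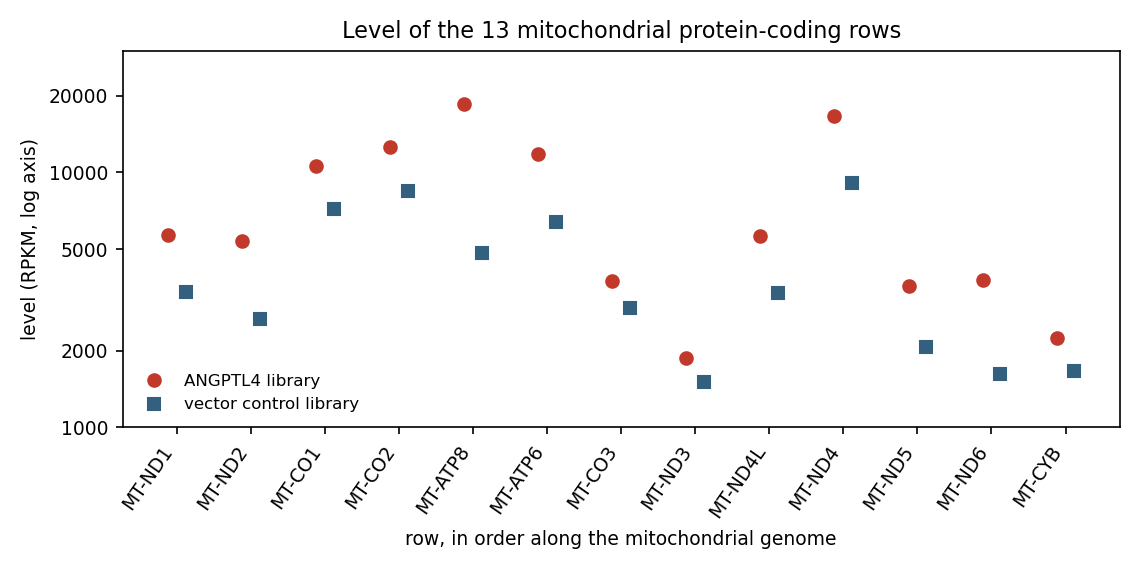
Level of each mitochondrial protein-coding row in RPKM (log axis) in the ANGPTL4 library (circles) and the vector control library (squares), in order along the mitochondrial genome, 1 library per group. Every circle lies above its square; the widest distance is at MT-ATP8, at 18507 RPKM in the ANGPTL4 library and 4811 RPKM in the vector control library.

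Complex I, the NADH dehydrogenase that feeds electrons into the chain, has 7 subunits encoded here. MT-ND4, a proton-pumping membrane subunit, was at 16709 RPKM in the ANGPTL4 library and 9103 RPKM in the vector control library (ratio 1.84, 95% exact interval 1.82 to 1.85, from 74455 and 82452 reads). It was the most abundant mitochondrial row of the vector control library and the second most abundant of the ANGPTL4 library. MT-ND1 (MT, 3307 to 4262), which lies near the quinone site, was at 5669 RPKM in the ANGPTL4 library and 3405 RPKM in the vector control library (ratio 1.66, 1.63 to 1.70). MT-ND2 (MT, 4470 to 5511), another pumping subunit, was at 5361 RPKM in the ANGPTL4 library and 2668 RPKM in the vector control library (ratio 2.01, 1.97 to 2.05). These neighbours, separated only by tRNAs, differed from each other in ratio by more than their intervals.

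MT-ND5 (MT, 12337 to 14148), the longest row with 1812 bases, was at 3588 RPKM in the ANGPTL4 library and 2077 RPKM in the vector control library (ratio 1.73, 1.70 to 1.76). MT-ND4L, a small membrane subunit, was at 5623 RPKM in the ANGPTL4 library and 3375 RPKM in the vector control library (ratio 1.67, 1.61 to 1.73). MT-ND3 (MT, 10059 to 10404), likewise a small membrane subunit, was the lowest row in both libraries, at 1879 RPKM in the ANGPTL4 library and 1512 RPKM in the vector control library. Its ratio, 1.24 (1.18 to 1.31), was also the lowest of the 13, and its interval overlapped that of MT-CO3.

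MT-ND6 (MT, 14149 to 14673), the light-strand mRNA, was at 3770 RPKM in the ANGPTL4 library and 1623 RPKM in the vector control library. Its ratio of 2.32 (2.24 to 2.41) was the second highest of the 13 rows. Relative to MT-ND5, which ends at the base before it on the other strand, its level was 1.05 in the ANGPTL4 library and 0.782 in the vector control library. Relative to MT-CYB on its other side its level was 1.69 in the ANGPTL4 library and 0.979 in the vector control library. Since the use of strand in the counting was not given, reads of MT-ND6 and reads of heavy-strand RNA across the same bases cannot be told apart. Guanine made up 35.6% of the MT-ND6 sequence, and between 6.28% and 16.2% of the other mRNAs.

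Complex III passes electrons on to cytochrome c, and its cytochrome b is encoded by MT-CYB (MT, 14747 to 15887). This row was at 2234 RPKM in the ANGPTL4 library and 1658 RPKM in the vector control library (ratio 1.35, 1.31 to 1.39). The 3 core subunits of complex IV, cytochrome c oxidase, differed by a similar amount. MT-CO1 (MT, 5904 to 7445), the subunit that holds the oxygen-reducing centre, was at 10583 RPKM in the ANGPTL4 library and 7217 RPKM in the vector control library (ratio 1.47, 1.45 to 1.48). MT-CO2 (MT, 7586 to 8269), which takes electrons from cytochrome c, was at 12558 RPKM in the ANGPTL4 library and 8430 RPKM in the vector control library (ratio 1.49, 1.47 to 1.51). The intervals of MT-CO1 and MT-CO2 overlapped, whereas MT-CO3 stood below both, at 3753 RPKM in the ANGPTL4 library and 2928 RPKM in the vector control library (ratio 1.28, 1.25 to 1.32).

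Both mitochondrially encoded subunits of ATP synthase belong to its membrane part, which conducts protons. MT-ATP8 was at 18507 RPKM in the ANGPTL4 library and 4811 RPKM in the vector control library, a ratio of 3.85 (3.73 to 3.96) from 12388 and 6546 reads. It was the most abundant row of the ANGPTL4 library and the fifth of the vector control library. MT-ATP8 and MT-ND6 were the only mitochondrial rows with more reads in the shallower ANGPTL4 library. MT-ATP6 was at 11776 RPKM in the ANGPTL4 library and 6371 RPKM in the vector control library (ratio 1.85, 1.82 to 1.88). The level of MT-ATP8 relative to MT-ATP6 was therefore 1.57 in the ANGPTL4 library and 0.755 in the vector control library, although the mRNAs of both are known to be carried on 1 transcript. In the other pair on a shared transcript, the level of MT-ND4L relative to MT-ND4 was 0.337 in the ANGPTL4 library and 0.371 in the vector control library. Neither pair had equal levels per base in either library. How the 46 shared bases printed above were counted was not given, and their part in the MT-ATP8 values was not tested.

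**Figure D2:**
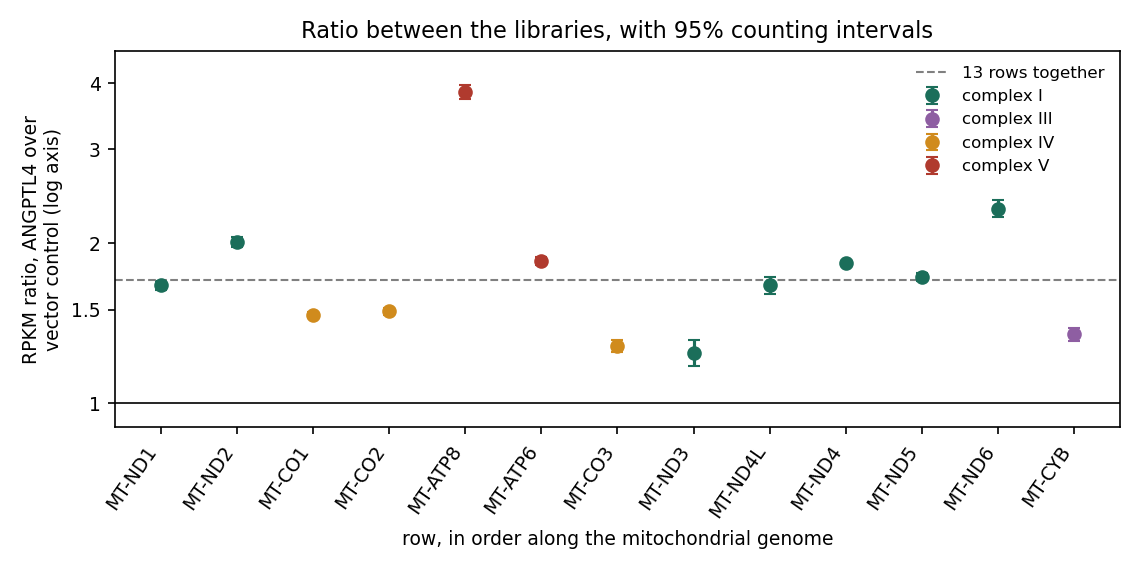
RPKM ratio of the ANGPTL4 library over the vector control library (log axis) for each mitochondrial protein-coding row in genome order, coloured by respiratory complex, with exact 95% intervals that cover counting error only. The dashed line marks the ratio of all 13 rows together, 1.70; MT-ATP8 lies at 3.85, and the lowest, MT-ND3, at 1.24.

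By complex, the summed reads had ratios of 1.81 (1.80 to 1.83) for complex I, 1.35 for complex III, 1.45 (1.44 to 1.46) for complex IV and 2.22 (2.19 to 2.25) for complex V. All 3 complex IV rows were below the ratio of the 13 rows together, and both complex V rows above it. Complex I was mixed, with rows from 1.24 to 2.32.

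The share of each row within the mitochondrial reads does not depend on how the library total was scaled. Complex IV rows held 32.0% of mitochondrial reads in the ANGPTL4 library and 37.5% in the vector control library. MT-CO1 alone held 18.7% in the ANGPTL4 library and 21.8% in the vector control library. MT-ND4 held 26.4% of mitochondrial reads in the ANGPTL4 library and 24.5% in the vector control library, the largest share of any row in both. The 4 rows with most reads held 64.3% in the ANGPTL4 library and 66.1% in the vector control library, so most mitochondrial reads came from few rows in both. MT-ATP8 held 4.40% (4.32 to 4.48) in the ANGPTL4 library and 1.95% (1.90 to 1.99) in the vector control library, and MT-ND6 held 2.27% in the ANGPTL4 library and 1.67% in the vector control library. MT-CO3 had a share of 3.38% in the ANGPTL4 library and 4.49% in the vector control library. In all, 5 rows had a higher share in the ANGPTL4 library beyond counting error (MT-ATP8, MT-ND6, MT-ND2, MT-ATP6 and MT-ND4), 6 a lower one, and for MT-ND4L and MT-ND5 the interval of the share ratio included 1. The lower share of MT-ND1, with a share ratio of 0.978 (0.958 to 0.997), depended on which rows made up the total. Its share ratio was 1.003 without MT-ATP8 or without MT-ND4 among the mitochondrial reads, with intervals that included 1. The share ratio of MT-ND5, 1.01 (0.996 to 1.03) of all mitochondrial reads, depended on them too, and was 1.04 (1.02 to 1.06), wholly above 1, with either row left out. The mitochondrial share of all reads differed by a ratio of 1.66 with MT-ATP8 left out.

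**Figure D3:**
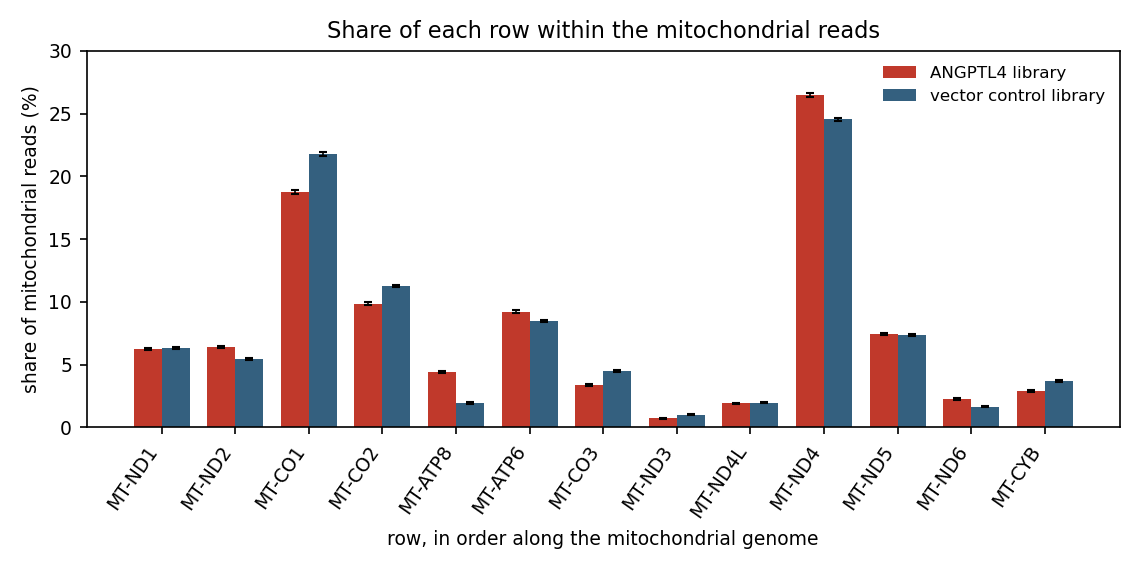
Share of each row within the mitochondrial reads, in percent, in the ANGPTL4 library (left bar of each pair) and the vector control library (right bar), with 95% Wilson intervals for counting error. MT-ND4 and MT-CO1 hold the largest shares in both libraries, with MT-ND4 at 26.4% in the ANGPTL4 library and 24.5% in the vector control library.

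Apart from MT-ATP8 and MT-ND6, the order of the levels was much alike in the libraries. Spearman's rho between the ANGPTL4 and vector control levels was 0.90 across the 13 rows, and 0.94 across 12 without MT-ATP8, as a description of rows that share both libraries and, for most, 1 precursor. The highest row stood 9.85 times above the lowest in the ANGPTL4 library and 6.02 times in the vector control library. The size of the difference showed little order along the genome (rho -0.03 between genome order and log2 RPKM ratio, n = 13) or with row length (rho -0.20, and 0.01 without MT-ATP8). Rows of lower GC content tended to higher ratios, with a rho of -0.55 over 13 rows and -0.43 without MT-ATP8, which had the lowest GC content, 39.6%. MT-ND3 went the other way, with the next lowest GC content, 40.2%, and the lowest ratio, 1.24. The 6 rows with a partial stop codon had ratios from 1.24 to 2.01 (median 1.51) and the 7 with whole codons from 1.47 to 3.85 (median 1.73), so the groups overlapped.

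Nuclear DNA holds many old copies of mitochondrial genes, and reads from near-identical copies can be assigned to either place. Of 188 nuclear rows named as copies of mitochondrial genes, 185 were listed at 0 in both libraries. The other 3 were MTRNR2L12 (chromosome 3, 96335981 to 96337000), at 0.303 RPKM in the ANGPTL4 library and 0.298 RPKM in the vector control library, and MTRNR2L9 and MTND5P28, at 0.587 and 0.194 RPKM in the ANGPTL4 library and listed at 0 in the vector control library. None reached 1 RPKM. A stretch of chromosome 1 (564442 to 570302) held 7 rows, 4 of them named as copies, and all were at 0. Within it, MTATP8P1 was identical to MT-ATP8 at 202 of 207 aligned positions (97.6%), with a longest shared run of 62 bases. MTATP6P1 was 98.5% identical to MT-ATP6, with a longest shared run of 141 bases. MTND2P28 was 98.4% identical to MT-ND2, with a shared run of 266 bases. In all, 6 mitochondrial mRNA rows had a named nuclear copy at least 90% identical over at least 90% of the row, and each of those copies was listed at 0. Nuclear rows not named as copies, including those in the chromosome 1 stretch, were not aligned, so close copies under other names would be missed. Zeros were common among pseudogene rows in general: 1.86% of rows classed as processed and 5.11% of rows classed as unprocessed pseudogenes had a value above 0. How reads that match both places were assigned was not given.

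Few nuclear rows reached levels near those of the mitochondrial mRNAs. At least 500 RPKM in a library was reached by 29 nuclear rows, of which 11 were higher and 18 lower in the ANGPTL4 library, with a median log2 ratio of -0.08. None of these 29 differed 2-fold. GAPDH, the glycolytic enzyme with the highest nuclear level in both libraries, was at 1488 RPKM in the ANGPTL4 library and 1626 RPKM in the vector control library. The largest of the 29 differences upward was that of the ribosomal protein gene RPL11, at 599.2 RPKM in the ANGPTL4 library and 307.9 RPKM in the vector control library (log2 ratio 0.96). The 13 mitochondrial rows had log2 ratios from 0.31 to 1.94 and these 29 nuclear rows from -0.76 to 0.96, so the ranges overlapped. The rows at the ends of the nuclear range, TMSB4X and RPL11, reached 500 RPKM in only 1 library. Choosing rows by their higher value can thus widen that range.

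**Figure D4:**
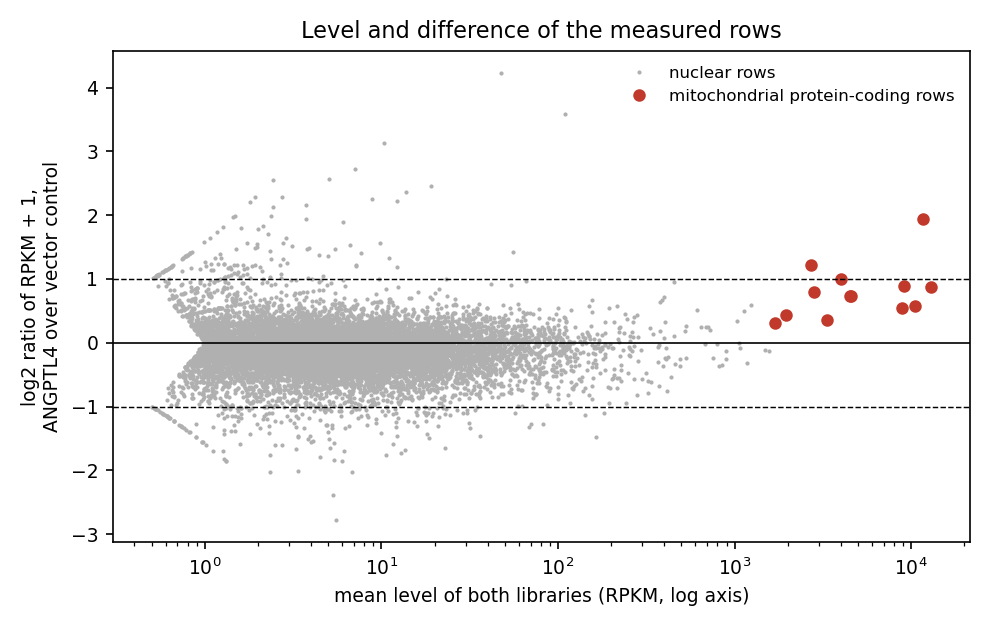
Log2 ratio of RPKM + 1, ANGPTL4 over vector control, against the mean level of both libraries in RPKM (log axis), for the 11820 measured rows; dashed lines mark a 2-fold difference. The 13 mitochondrial protein-coding rows (large points) lie at the high end of the level axis and all above 0, 3 of them above the 2-fold line.

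The nuclear genes that replicate, transcribe, process and translate mitochondrial DNA had values on both sides. Of 70 listed genes, 67 were measured. Of these, 14 were higher and 53 lower in the ANGPTL4 library, where 64.5% of all measured rows were lower. No difference reached 2-fold, and the list had a median log2 ratio of -0.20 against -0.11 for all measured rows. With all rows centred on their median, 46 of 67 were lower, beside an even split of all measured rows that this centring fixes in advance. The ratio's counting interval lay below 1 for 17 genes and above 1 for 2, out of 66 with an interval. Over all 11695 measured rows with an interval it lay below 1 for 23.7% and above 1 for 7.61%. The share of the list below 1 was thus close to that of all rows. Its share above 1 was smaller than that of all rows, though it rests on only 2 genes. These intervals rest on the smallest whole reads that give both values and are, if anything, too wide.

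The 5 measured genes of transcription were all lower, a direction held by 64.5% of all measured rows. The polymerase POLRMT was at 7.16 RPKM in the ANGPTL4 library and 10.9 RPKM in the vector control library (ratio 0.659, 0.538 to 0.804). The elongation factor TEFM was at 2.59 RPKM in the ANGPTL4 library and 3.78 RPKM in the vector control library (ratio 0.686, 0.426 to 1.07). The initiation factor TFB2M was at 5.19 RPKM in the ANGPTL4 library and 6.42 RPKM in the vector control library (ratio 0.808, 0.515 to 1.24). Of these 3, the counting interval of POLRMT alone lay below 1. TFAM, which packs mitochondrial DNA and bends its promoters, was at 10.9 RPKM in the ANGPTL4 library and 13.8 RPKM in the vector control library (ratio 0.792, 0.622 to 1.003).

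Genes of RNA stability and decay were lower for all 13 measured members, with a median log2 ratio of -0.29, against 64.5% of rows lower and a median of -0.11 over all measured rows. LRPPRC, which protects the mRNAs, was at 38.1 RPKM in the ANGPTL4 library and 46.6 RPKM in the vector control library (ratio 0.817, 0.764 to 0.874). Its partner SLIRP was at 13.95 RPKM in the ANGPTL4 library and 22.8 RPKM in the vector control library (ratio 0.612, 0.494 to 0.754). FASTKD1, of the FASTK family of RNA-binding proteins, had a ratio of 0.606 (0.439 to 0.826). The degradosome is formed by the helicase SUPV3L1, with a ratio of 0.748 (0.591 to 0.940), and the nuclease PNPT1, with a ratio of 0.808 (0.630 to 1.03). MTPAP, the poly(A) polymerase, had a ratio of 0.766 (0.551 to 1.05). Genes of stabilising and of degrading proteins were thus both lower, not in all cases beyond counting error.

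RNA processing genes were lower for 8 of 9, beside the same 64.5% of all rows. FASTKD4, another FASTK protein, deposited under its older symbol TBRG4, was at 11.4 RPKM in the ANGPTL4 library and 18.8 RPKM in the vector control library (ratio 0.606, 0.518 to 0.707), the lowest log2 ratio of the whole list. Mitochondrial RNase P, which cuts the tRNAs at their 5′ ends, has 3 protein subunits, whose values differed in direction. HSD17B10 was at 13.04 RPKM in the ANGPTL4 library and 20.6 RPKM in the vector control library (ratio 0.633, 0.446 to 0.883). TRMT10C was at 8.35 RPKM in the ANGPTL4 library and 8.46 RPKM in the vector control library (ratio 0.987, 0.692 to 1.39). PRORP, the nuclease subunit, was at 31.3 RPKM in the ANGPTL4 library and 22.3 RPKM in the vector control library. Its log2 ratio of 0.47 was the highest of the list. These values are sums of RPKM over 2 rows of its older symbol KIAA0391, each scaled to its own length. They have no counting interval, so whether the difference exceeds counting error is not known. The highest log2 ratio with an interval was that of PPRC1, at 0.43. ELAC2, which cuts the 3′ ends, was at 16.5 RPKM in the ANGPTL4 library and 17.0 RPKM in the vector control library (ratio 0.971, 0.850 to 1.11).

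The remaining groups each had values in both directions, in unequal parts for most. Genes of rRNA and tRNA modification were lower for 10 of 16 and translation genes for 7 of 11, shares close to the 64.5% of all measured rows. In the modification group the rRNA methyltransferase TFB1M was at 3.28 RPKM in the ANGPTL4 library and 5.62 RPKM in the vector control library (ratio 0.584, 0.372 to 0.890). The tRNA-modifying GTPase GTPBP3 was at 7.78 RPKM in the ANGPTL4 library and 6.71 RPKM in the vector control library (ratio 1.16, 0.822 to 1.62). Genes of nucleoid and replication were lower for 8 of 9, as in RNA processing, beside the same 64.5% of all rows. The topoisomerase TOP1MT was higher, at 12.3 RPKM in the ANGPTL4 library and 9.92 RPKM in the vector control library (ratio 1.24, 1.06 to 1.46). MTIF3, an initiation factor of translation, had a ratio of 1.29 (0.943 to 1.75). Among the nuclear regulators, the coactivator PPRC1 was at 26.1 RPKM in the ANGPTL4 library and 19.1 RPKM in the vector control library (ratio 1.36, 1.22 to 1.53), while its relative PPARGC1A was listed at 0 in both.

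**Figure D5:**
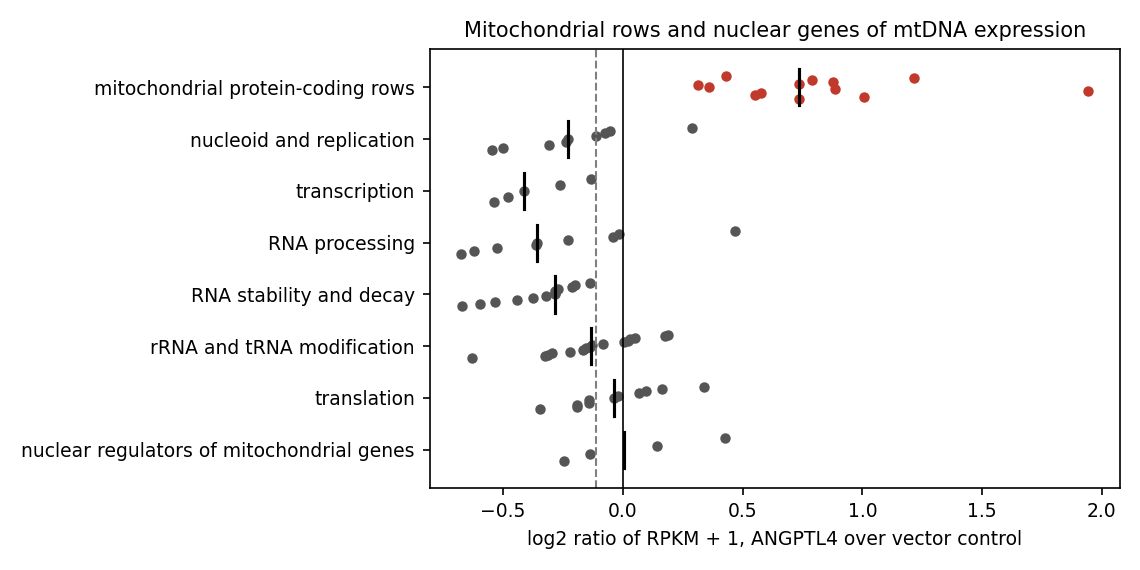
Log2 ratio of RPKM + 1, ANGPTL4 over vector control, for the mitochondrial protein-coding rows (top) and the measured nuclear genes of mitochondrial DNA expression by role; each point is a gene, black bars are medians and the dashed line is the median of all measured rows, -0.11. The mitochondrial rows have a median of 0.74, and the transcription and RNA stability groups lie wholly below 0.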

How the data were processed

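Total RNA was extracted with TRIzol, per the labels' protocols. The authors deposited 1 RPKM value per row and library, per the file headers; the submitters' processing notes name hg19. Not given in the sources used here: aligner, counting program, annotation release, read length, strand use and treatment of reads with several matches. From the RPKM values, depth was taken as the smallest total at which all 13 mitochondrial mRNA values became whole reads (tolerance 0.02 reads). For other genes the smallest whole reads were sought over exon lengths from 150 to 20000 bases. Ratios have exact (Clopper-Pearson) and shares Wilson 95% intervals. Log2 ratios used a pseudocount of 1, measured rows had at least 1 RPKM in a library, and the size rule was 2-fold. Sequences, gene types and names came from GENCODE 29, and nuclear copies were aligned with BLAST 2.17.0. With 1 library per group no test was possible. Simulated data were used to try the recovery of depth and mitochondrial reads, the ratio interval, and the size rule with changes larger than its limit. The search for smallest whole reads of other genes was not simulated. Python 3.11.15 and scipy 1.17.1 were used.

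The members, gene lists and alternatives were chosen with earlier results of these data known. All mitochondrial mRNA and rRNA rows are named; of the mitochondrial expression genes, the 5 highest and 5 lowest by log2 ratio and 11 central factors; of the nuclear copies, those above 0, and the closest copies of MT-ATP8, MT-ATP6 and MT-ND2, chosen after their values were seen.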

Additional observations from a re-analysis of the deposited data

How the results depend on the processing

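The 13 mitochondrial mRNA rows were recomputed under 5 alternatives. These were pseudocounts of 0.1 and 5, centring on the median row, upper-quartile scaling, and reads outside the 13 rows alone as the total. All 65 log2 ratios were above 0, between 0.31 and 2.06, and 3 rows stayed past 2-fold in each. Centring and scaling shift all 13 rows by almost the same amount, and the pseudocounts are small beside these levels. The 65 values are therefore not separate checks of the direction. The median of the 13 rows was 0.85 after centring and 0.79 with the reads outside them as the total. It was 0.57 without the 4 rows of the MT-ATP8/MT-ATP6 and MT-ND4L/MT-ND4 overlaps. The share ratio was 1.66 without MT-ATP8, an alternative chosen after seeing the data. The share ratio of MT-ND1 crossed 1, to 1.003, without MT-ND4 and without MT-ATP8, and that of MT-ND5, whose interval included 1, was 1.04 (1.02 to 1.06) with either of these left out. Counts over all rows moved most: 285 higher and 536 lower with a pseudocount of 0.1, 16 and 26 with one of 5, 34 and 126 with a minimum of 5 RPKM, and 140 lower after centring. The median of the mitochondrial expression genes was -0.13 with a pseudocount of 5 and -0.088 after centring. No paired analysis was possible because each group had 1 library. Depth limits the nuclear genes, which had far lower levels, more than the mitochondrial rows. Their smallest whole reads in the ANGPTL4 library were often under 100. These are the fewest reads that fit the values, so the reads of a gene may have been more.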
